A study of Mus musculus with 2 samples.

Results

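The genes described here are *Trem2*, *Tyrobp*, *Itgax*, *Cst7*, *Spp1*, *Lpl*, *Gpnmb*, *Axl*, *Dkk2* and *Clec7a*, a set built around the microglial receptor TREM2 and the genes that mark disease-associated microglia (DAM). They were chosen by symbol, and 9 of the 10 were found among the 32285 genes of the count matrices. *Clec7a* was not analysed here. Each gene is given by its level and its share of positive nuclei in every marker-defined cell class of the hippocampus, and by the nuclei of microglia in which it was found together with the others.

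The nuclei came from the hippocampus of male mice aged 9 months and were profiled by single-nucleus RNA sequencing (snRNA-seq), in 1 library per genotype. PS19 mice are hemizygous for a human tau transgene with the P301S mutation, which is driven by the mouse prion promoter and so is not limited to 1 cell type, with both *Zbp1* alleles intact (PS19+/- Zbp1+/+). PZKO mice carry the same transgene and lack *Zbp1* (PS19+/- Zbp1-/-), so that both groups carry mutant tau, and mice without the transgene are not analysed here. Hippocampi of several males were combined in each library, and the counts carry no label for the animal, so that no replicate spread exists and no test between genotypes was made. Intervals in brackets are 95% intervals and cover counting error only.

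TREM2 is a lipid-binding receptor on the surface of microglia that signals through the adaptor TYROBP, also called DAP12, to the kinase SYK. Around amyloid plaques and in demyelination, microglia lower their homeostatic genes and raise genes of lysosomal, lipid and adhesion functions, a shift that is known to depend in part on TREM2. ITGAX is an integrin subunit, CST7 an inhibitor of lysosomal cathepsins, SPP1 (osteopontin) a secreted phosphoprotein, LPL a lipase, GPNMB a lysosomal glycoprotein, AXL a receptor tyrosine kinase that takes part in the clearance of apoptotic cells and DKK2 a secreted regulator of Wnt signaling.

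The 250 bases before the start of 4 of the genes are printed here. Of these, *Spp1*, *Gpnmb* and *Dkk2* had the highest ratios of shared nuclei among the members. The ratios of *Trem2* with them were lower, but *Trem2* is found in many nuclei, which limits such a ratio. The sequences are from RefSeq (GRCm38.p6), which held an entry for 8 of the 10 genes, and all 4 lie on the plus strand, at chr17:48346151-48346400 for *Trem2*, chr5:104434861-104435110 for *Spp1* (the first of its entries), chr6:49036268-49036517 for *Gpnmb* and chr3:132085042-132085291 for *Dkk2*. Capitals mark matches to 4 motifs searched on both strands: CACGTG and TCATGTG (bound by the MiT/TFE factors MITF and TFEB), TGANTCA (AP-1) and GAGGAAGT (PU.1).
Trem2: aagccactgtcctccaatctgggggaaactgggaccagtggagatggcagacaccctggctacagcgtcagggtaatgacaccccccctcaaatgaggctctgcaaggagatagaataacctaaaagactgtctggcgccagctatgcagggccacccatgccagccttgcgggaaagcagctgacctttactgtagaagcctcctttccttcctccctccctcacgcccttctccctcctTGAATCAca
Spp1: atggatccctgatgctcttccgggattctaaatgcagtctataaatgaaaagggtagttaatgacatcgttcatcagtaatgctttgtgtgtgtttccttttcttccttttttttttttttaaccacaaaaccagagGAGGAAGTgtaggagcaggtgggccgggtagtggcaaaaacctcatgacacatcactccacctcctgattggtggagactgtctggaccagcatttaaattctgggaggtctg
Gpnmb: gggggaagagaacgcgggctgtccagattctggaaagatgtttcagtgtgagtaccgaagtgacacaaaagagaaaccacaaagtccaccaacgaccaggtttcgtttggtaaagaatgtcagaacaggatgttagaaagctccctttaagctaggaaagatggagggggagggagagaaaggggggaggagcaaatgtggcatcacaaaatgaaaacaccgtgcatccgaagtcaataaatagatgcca
Dkk2: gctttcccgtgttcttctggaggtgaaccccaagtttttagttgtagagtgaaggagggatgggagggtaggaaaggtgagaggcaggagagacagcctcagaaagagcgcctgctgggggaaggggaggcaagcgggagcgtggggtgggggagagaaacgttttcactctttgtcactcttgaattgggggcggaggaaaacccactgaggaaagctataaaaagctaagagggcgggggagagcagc
*Trem2* held 1 match to TGANTCA, which 6.75% of all 32851 promoter windows of this length hold, and *Spp1* held 1 match to GAGGAAGT, which 2.44% hold. No match to the 4 motifs lay in the windows of *Gpnmb* and *Dkk2*. The share of windows with CACGTG is 6.02% and the share with TCATGTG is 3.25%.

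After filters on depth, mitochondrial UMIs (unique molecular identifiers) and doublets, 9590 PS19 nuclei and 9307 PZKO nuclei remained, at 100571195 and 152268056 UMIs. *Zbp1*, the deleted gene, had 92 PS19 UMIs and 38 PZKO UMIs (0.915 and 0.25 CPM, a gene's UMIs scaled to the same total in every library or class), a log2 ratio of -1.87 [-2.46, -1.31], and the libraries' labels match this direction. In microglia it had 48 and 20 UMIs, or 14.7 and 5.97 CPM, a log2 ratio of -1.30 [-2.13, -0.52], so that part of its signal remained in the PZKO library. Among the nuclei kept, 29 cell barcodes occurred in both libraries, and 4 PS19 microglia and 2 PZKO microglia carried one of them. Nuclei fell into 34 clusters, which were named as 14 classes by marker genes, and 6.16% of the PS19 and 6.33% of the PZKO nuclei stayed unnamed. Macrophages (20 and 12 nuclei), T cells (29 and 34) and Cajal-Retzius cells (28 and 30) are too few for firm values.

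Microglia formed 1 cluster of 949 PS19 nuclei and 753 PZKO nuclei, 9.90% [9.31, 10.51] and 8.09% [7.54, 8.66] of the nuclei kept, with medians of 3313 and 4188 UMIs. The cluster had been named from a list of 9 genes of microglia, which includes *Tmem119*, *P2ry12*, *Cx3cr1* and *Csf1r*. Each of the 9 was found in both libraries, and together they reached 9163 CPM in PS19 and 9393 CPM in PZKO. Because the name rests on these genes, their presence is no separate check of the label. The 6 macrophage markers summed to 13.2 and 9.26 CPM in microglia, against 6818 and 9395 CPM in the macrophage class, and 2 of them were at 0 in PS19 microglia and 1 in PZKO microglia. The 5 T cell markers summed to 1.53 and 2.39 CPM. Markers of some other classes were higher. Oligodendrocyte markers summed to 1125 CPM in PS19 microglia and 986 CPM in PZKO microglia, and astrocyte markers to 955 and 954 CPM. Choroid plexus markers summed to 807 and 108 CPM, most of it from *Ttr* (788 and 95.6 CPM). The part of these markers in the results below was not tested.

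Within microglia, most of these genes were lower in the PZKO library. Of the 9 measured members, 8 had a log2 ratio of PZKO over PS19 below 0 and 4 (*Spp1*, *Dkk2*, *Cst7* and *Itgax*) lay at -0.5 or less, while 8.75% of the 10657 microglial genes with at least 50 UMIs did so and 53.5% of them lay below 0. None of the 9 lay at 0.5 or more, where 4.68% of all genes lay. The median of the members was -0.49 and the median of all genes was -0.03. Just outside the limit of -0.5 lay *Gpnmb* at -0.49, and just inside it *Itgax* at -0.52. With TMM or DESeq2 factors in place of total UMIs, *Itgax* was at -0.48 and 3 members lay at -0.5 or less.

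The receptor and its adaptor differed less than most of the induced members. *Trem2* (chr17:48346401-48354147, plus strand, mm10) had 1009 UMIs in PS19 microglia and 864 UMIs in PZKO microglia, or 309 [290, 328] and 258 [241, 276] CPM. PS19 was the higher library and the intervals did not overlap, and the log2 ratio was -0.26 [-0.39, -0.13]. *Tyrobp* (chr7:30413760-30417585) had 540 and 432 UMIs, or 165 [152, 180] and 129 [117, 142] CPM, a log2 ratio of -0.36 [-0.54, -0.17]. The size of both differences lies within those of many other microglial genes, since 22.5% of the genes ranked at or below *Trem2* and 15.5% at or below *Tyrobp*.

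The members that are induced in DAM spread over a wider range. *Spp1* (chr5:104435118-104441050) had 535 UMIs in PS19 microglia and 128 UMIs in PZKO microglia, or 164 [150, 178] and 38.2 [31.9, 45.5] CPM. Its log2 ratio of -2.10 [-2.39, -1.82] was the lowest of the members and ranked 3 from the lowest of 10657 genes. *Dkk2* (chr3:132085292-132180304) had 201 and 58 UMIs, or 61.5 [53.3, 70.6] and 17.3 [13.2, 22.4] CPM, a log2 ratio of -1.83 [-2.28, -1.40] and rank 8. Both encode secreted proteins, and the PZKO level of both lay far below the PS19 interval.

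*Cst7* (chr2:150570415-150578944) had 204 PS19 UMIs and 119 PZKO UMIs, or 62.4 [54.2, 71.6] and 35.5 [29.4, 42.5] CPM, a log2 ratio of -0.81 [-1.15, -0.48]. *Itgax* (chr7:128129547-128150657), which encodes the integrin subunit CD11c, had 590 and 422 UMIs, or 180.5 [166, 196] and 126 [114, 139] CPM, a log2 ratio of -0.52 [-0.70, -0.34]. *Gpnmb* (chr6:49036546-49070929) had 487 and 355 UMIs, or 149 [136, 163] and 106 [95.3, 118] CPM, a log2 ratio of -0.49 [-0.69, -0.29]. For these 3 genes the PS19 interval also lay above the PZKO interval, with smaller differences than for *Spp1*.

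*Lpl* (chr8:68880491-68907448), the lipase of triglyceride-rich lipoproteins, had 668 UMIs in PS19 and 594 in PZKO, or 204 [189, 221] and 177 [163, 192] CPM, with a log2 ratio of -0.20 [-0.37, -0.04]. *Axl* (chr7:25757273-25788705, on the minus strand) had 672 and 742 UMIs, or 206 [190, 222] and 222 [206, 238] CPM. It was the only member with a higher value in PZKO over all microglia, and its interval of 0.11 [-0.04, 0.26] includes 0. Counts of nuclear RNA can include reads from introns, and these genes span from 3.83 kb (*Tyrobp*) to 95 kb (*Dkk2*), so that levels are compared here between classes and libraries and not between genes.

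These differences moved with the mitochondrial share of the nuclei. Nuclei with more than 1% mitochondrial UMIs made up 27.1% of PS19 microglia (257 nuclei) and 18.7% of PZKO microglia (141 nuclei). Among the nuclei with at most 1% (692 and 612), only *Spp1* and *Dkk2* stayed at -0.5 or less, at -1.93 [-2.27, -1.60] and -1.23 [-1.74, -0.75], where 8.70% of all genes did. The log2 ratio in these nuclei was -0.11 [-0.26, 0.04] for *Trem2*, -0.02 [-0.24, 0.19] for *Tyrobp* and -0.18 [-0.58, 0.22] for *Cst7*.

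*Gpnmb* turned direction in these nuclei, to 0.24 [-0.01, 0.49], with 96.9 CPM in PS19 and 114 CPM in PZKO. In the same nuclei *Itgax* kept its ratio, at -0.49 [-0.69, -0.29], and so did *Lpl*, at -0.28 [-0.46, -0.10]. *Axl* was at 0.18 [0.01, 0.35] there, an interval that excludes 0. In the nuclei with more than 1%, *Lpl* was at 0.06 [-0.34, 0.44] and *Axl* at -0.28 [-0.66, 0.09]. *Gpnmb* and *Cst7* lay farther apart there than over all microglia. *Gpnmb* was at 307 CPM in PS19 and 60.4 CPM in PZKO, a log2 ratio of -2.35 [-2.93, -1.80]. *Cst7* was at 122 and 23.4 CPM, a log2 ratio of -2.38 [-3.38, -1.52]. *Tyrobp* also lay farther apart in these nuclei, at -1.24 [-1.69, -0.81]. So did *Itgax*, at -0.88 [-1.40, -0.38], and *Trem2*, at -0.63 [-0.93, -0.34]. The intervals of *Itgax* and *Trem2* overlapped with those over all microglia, and that of *Tyrobp* did not.

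*Dkk2* had 93 PS19 UMIs and 5 PZKO UMIs in those nuclei, and *Spp1* kept a similar ratio, -2.16 [-2.76, -1.60]. The median of the members was -0.18 in nuclei with at most 1% mitochondrial UMIs and -1.24 in nuclei above it. The part of the mitochondrial share in the differences between libraries was not tested further. With 1 pool per genotype, fewer nuclei of a state and less RNA per nucleus cannot be told apart from the summed counts.

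**Figure D1:**
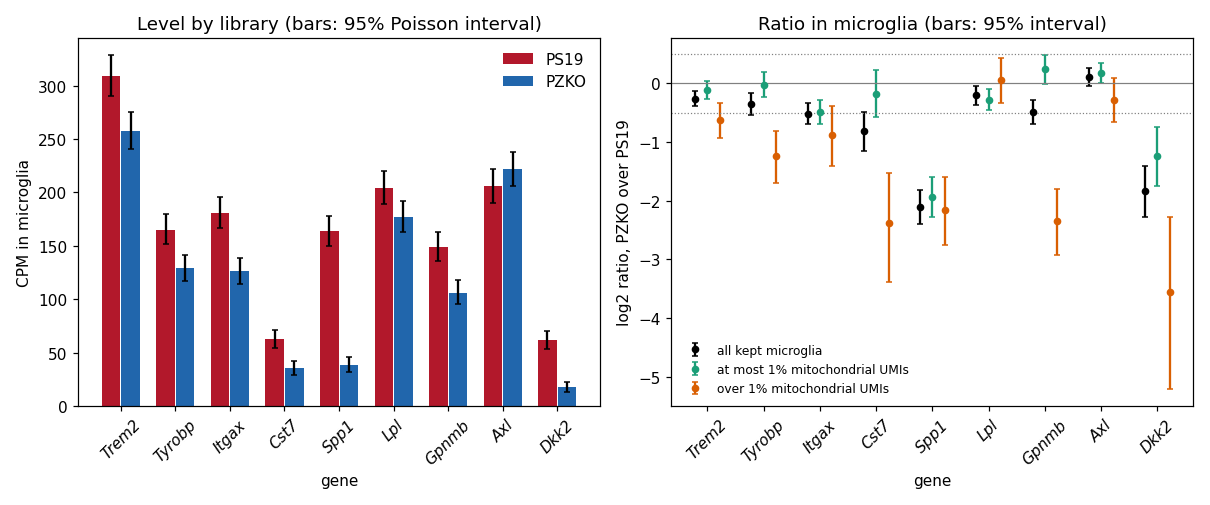
Left, the level of each member in microglia in CPM (y axis), in 949 PS19 nuclei (red) and 753 PZKO nuclei (blue), with 95% Poisson intervals. Right, the log2 ratio of PZKO over PS19 (y axis) in all microglia (black), in nuclei with at most 1% (green) and over 1% (orange) mitochondrial UMIs, with 95% intervals and dotted lines at -0.5 and 0.5; *Spp1* and *Dkk2* lie below -0.5 in all 3 sets, while *Gpnmb* lies above 0 in the green set and at -2.35 in the orange one.

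The share of positive nuclei was compared after thinning every nucleus to 2000 UMIs, because PZKO nuclei held more UMIs. This left 824 PS19 nuclei and 693 PZKO nuclei. At that depth, *Trem2* was found in 44.6% [41.2, 48.1] of PS19 microglia and 39.1% [35.5, 42.9] of PZKO microglia, and without thinning in 59.3% and 62.2%. In excitatory neurons, which should lack *Trem2*, the thinned shares were 0.559% and 0.303%, and the shares as deposited were 4.70% and 4.003% at medians of 18789 and 28442.5 UMIs.

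*Tyrobp* was found in 27.2% [24.2, 30.3] and 23.5% [20.4, 26.8] of thinned nuclei and *Axl* in 30.5% [27.4, 33.8] and 30.4% [27.0, 33.9]. For these genes, as for *Trem2*, the intervals of the libraries overlapped. *Spp1* was found in 12.2% [10.1, 14.7] of nuclei in PS19 and 4.95% [3.46, 6.84] in PZKO, and *Dkk2* in 5.62% [4.15, 7.42] and 2.596% [1.55, 4.07]. Among the members, the intervals stayed apart for *Spp1* and *Dkk2* alone.

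*Itgax* was found in 23.5% [20.7, 26.6] and 17.8% [15.03, 20.9] of thinned nuclei, *Cst7* in 9.95% [7.99, 12.2] and 6.61% [4.87, 8.72], *Lpl* in 19.8% [17.2, 22.7] and 16.4% [13.7, 19.3], and *Gpnmb* in 9.86% [7.91, 12.1] and 7.62% [5.75, 9.85]. The PS19 share was the higher one for each of these 4 genes, and the intervals overlapped.

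The members also differed in how their UMIs were shared out. *Gpnmb* was concentrated, with 4.39 UMIs per positive nucleus in PS19 and 5.15 in PZKO, and the 10 nuclei with the most UMIs held 41.9% and 47.9% of its microglial UMIs. For *Dkk2* the 10 top nuclei held 49.25% and 53.45%, and for *Spp1* 37.4% and 47.7%. Few nuclei thus set much of the microglial levels of these 3 genes, and the intervals, which count UMIs, do not cover this. *Trem2* was spread out, with 1.79 and 1.85 UMIs per positive nucleus and 6.15% and 6.48% of its UMIs in 10 nuclei.

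*Spp1* differed in this respect between the libraries. Its positive nuclei held 3.43 UMIs in PS19 and 2 in PZKO, 31 PS19 nuclei and 4 PZKO nuclei held 5 UMIs or more, and the nucleus with the most held 43 UMIs in PS19 and 18 in PZKO. *Dkk2* had 12 PS19 nuclei and 1 PZKO nucleus with 5 UMIs or more. *Axl* went the other way, with 12 PS19 nuclei and 26 PZKO nuclei at that level.

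Of the 6 measured induced members (*Itgax*, *Cst7*, *Spp1*, *Lpl*, *Gpnmb* and *Dkk2*), microglial nuclei held from none to all. As deposited, 387 PS19 nuclei held none, 266 held 1 and 296 held 2 or more, while 367, 201 and 185 PZKO nuclei did so. All 6 were found in 4 PS19 nuclei and 1 PZKO nucleus. Thinned to 2000 UMIs, 20.7% [17.95, 23.6] of PS19 microglia and 12.8% [10.4, 15.5] of PZKO microglia held at least 2, and 48.9% and 60.7% held none. The intervals for at least 2 did not overlap at that depth, nor at 1000 UMIs (10.4% [8.56, 12.6] and 5.47% [3.96, 7.34]). Among nuclei with at most 1% mitochondrial UMIs the thinned shares were 18.9% and 13.7%. No intervals were computed for these 2 shares, so a separation of the libraries is not shown in those nuclei.

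**Figure D2:**
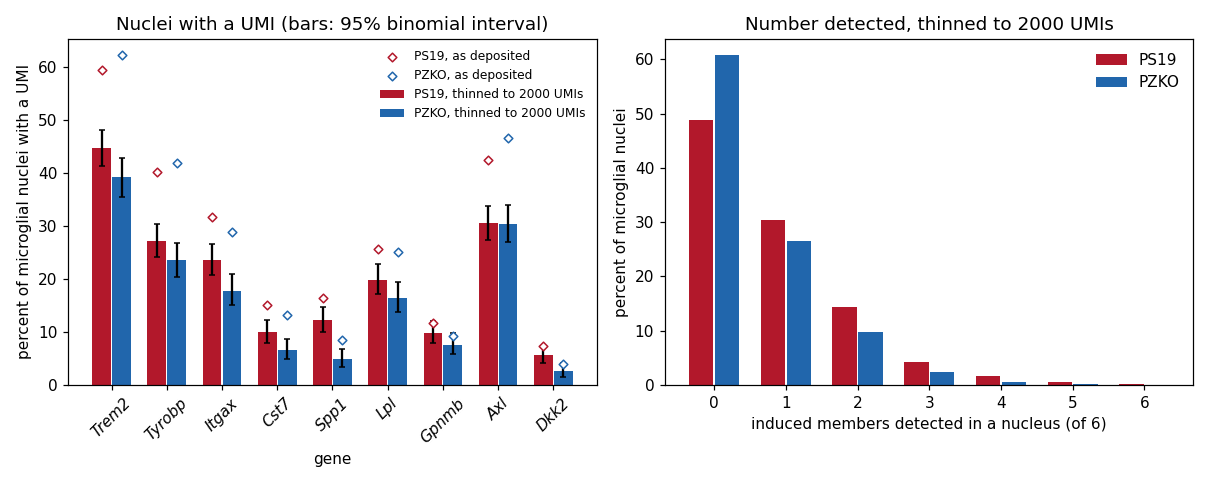
Left, the percent of microglial nuclei with a UMI of each member (y axis), thinned to 2000 UMIs (bars, with 95% binomial intervals; 824 PS19 and 693 PZKO nuclei) and as deposited (open diamonds). Right, the percent of thinned nuclei (y axis) by the number of the 6 induced members found in a nucleus (x axis); the PS19 bars are higher from 1 member on, and the PZKO bar is higher at none.

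Within each library, induced members were found together more often than their single shares would give. The ratio of nuclei with both genes to the product of the single shares, at 2000 UMIs, had a median of 1.52 over the 15 pairs of induced members in PS19 and 1.96 in PZKO, and lay above 1 for all 15 pairs in both. The highest ratio in both libraries belonged to *Gpnmb* and *Dkk2*, at 4.25 in PS19 and 4.76 in PZKO. As deposited, 34 of 70 *Dkk2*-positive PS19 nuclei held *Gpnmb* (48.6%), against 8.76% of the nuclei without *Dkk2*. In PZKO, 12 of 30 did (40%), against 7.88%.

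*Spp1* was found with *Gpnmb* at ratios of 2.27 and 3.11, with *Dkk2* at 2.23 and 4.61 and with *Lpl* at 2.03 and 2.45. The PZKO pairs rest on few nuclei, with 18 nuclei holding *Spp1* and *Gpnmb* and 10 holding *Spp1* and *Dkk2*. *Lpl* and *Gpnmb* were nearer to independence, at 1.33 and 1.24. *Cst7* and *Gpnmb* had 1.60 and 1.57.

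The ratios of *Trem2* with the other members lay nearer to 1. Such a ratio cannot exceed the inverse of the share of the commoner gene. *Trem2* was in 44.6% of PS19 and 39.1% of PZKO nuclei at this depth, so its pairs cannot reach the ratios of rare genes. The strength of association is therefore not compared between *Trem2* and the rarer members. Its 8 pairs had a median ratio of 1.14 in PS19 and 1.05 in PZKO, with a range of 0.959 to 1.24 and of 0.796 to 1.13. The 8 pairs of *Tyrobp* had medians of 1.15 and 1.05, and those of *Axl* 1.20 and 1.37. *Axl* had its highest ratios with *Spp1*, at 1.39 in PS19 and 1.65 in PZKO. All pairs of a library share its nuclei and depth, and the ratios are given as descriptions.

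**Figure D3:**
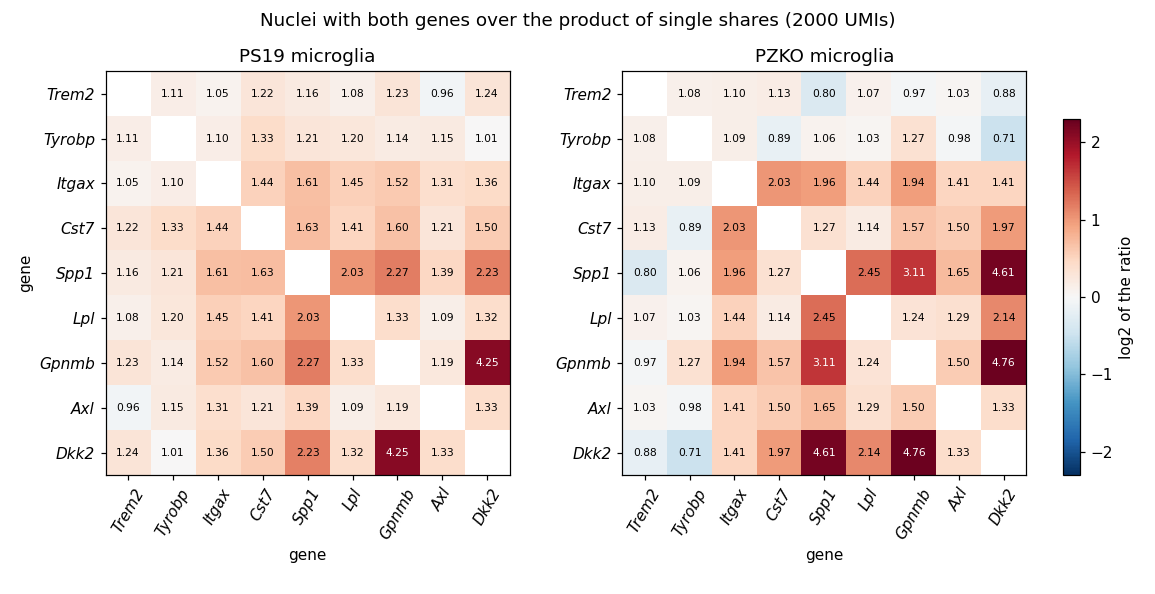
Each cell gives, for a pair of members (x and y axes), the nuclei with both genes over the product of the single shares at 2000 UMIs, in PS19 microglia (left) and PZKO microglia (right), with color on a log2 scale. The block of *Spp1*, *Gpnmb* and *Dkk2* lies between 2.23 and 4.76 over both libraries, and the rows of *Trem2* and *Tyrobp* lie between 0.714 and 1.33.

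Nuclei with at least 2 induced members were then compared with nuclei that held none, within each library. There were 296 and 387 such nuclei in PS19 (medians of 4018.5 and 2846 UMIs) and 185 and 367 in PZKO (5487 and 3663 UMIs), so that the nuclei with more members were the deeper ones. The 266 PS19 nuclei and 201 PZKO nuclei with 1 member lie at the limit and were left out. The 15 genes with the highest and the 10 with the lowest ratio in PS19 were named, members left out, and their PZKO values were read beside them. All 15 were higher in PZKO too and 9 of the 10 were lower, with an interval that excluded 0 for each of these 24 genes. In nuclei of at least 3000 UMIs all 25 had the PS19 direction in PZKO. The direction in PS19 was largely set by the choice of the genes and is no separate result.

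Of the 15 genes that were higher in the induced nuclei, 3 were on the list of further DAM genes, *Atp6v0d2*, *Igf1* and *Lgals3*. *Atp6v0d2*, a subunit of the vacuolar proton pump, was at 164 CPM against 6.16 CPM in PS19, a log2 ratio of 4.74 [3.67, 6.07], and at 5.04 [3.88, 6.51] in PZKO. *Igf1*, a growth factor, had 2.86 [2.41, 3.34] and 2.51 [2.06, 2.97], and *Lgals3*, a galectin, had 3.14 [2.28, 4.14] and 3.99 [2.79, 5.49]. *Rab7b*, a GTPase of late endosomes, had 2.79 and 2.3.

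Others encode proteins of the matrix or the cell membrane. *Postn*, the matrix protein periostin, had 4.91 [3.32, 7.21] in PS19 on 96 against 3 UMIs, and 3.66 [2.18, 5.61] in PZKO on 36 against 4 UMIs. *Mamdc2* had 4.62 and 4.42, *Myof*, a membrane repair protein, 4.15 and 4.22, *Ctnna3*, an alpha catenin, 3.87 and 3.60, and *Colec12*, a scavenger receptor, 3.64 and 3.49. *Itga4*, an integrin subunit, had 2.69 and 1.89.

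The remaining genes were *Fam20c* (2.52 and 2.70), a kinase of secreted proteins that has osteopontin among its substrates, *Flt1* (2.52 and 1.99), *Ikbke* (3.21 and 2.21), *Lilrb4a* (2.24 and 2.44), an inhibitory immune receptor, and *Ms4a7* (2.52 and 3.23). *Flt1* is one of the endothelial markers and *Ms4a7* one of the border macrophage genes. The other 6 endothelial markers summed to 14.9 CPM in the PS19 nuclei with at least 2 members and to 18.5 CPM in those with none, and to 14.7 and 55.4 CPM in PZKO. The macrophage markers summed to 10.7 and 13.2 CPM in PS19 and to 6.88 and 13.3 CPM in PZKO. The macrophage sum, and the endothelial sum without *Flt1*, were lower in the nuclei with at least 2 members, in both libraries. With *Flt1*, the endothelial sum was higher there, at 211 against 52.8 CPM in PS19 and 248.5 against 114 CPM in PZKO. Markers of oligodendrocyte precursors were also higher, at 30.5 against 27.3 CPM and 51.1 against 40.6 CPM. So were those of inhibitory neurons, at 102 against 89.8 CPM and 103 against 91.1 CPM. Ependymal markers were at 20.6 against 12.3 CPM and 13.8 against 9.11 CPM. Markers of the remaining classes were not higher in both libraries. The part of other cells in these ratios was not tested.

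The 10 genes that were lower included 3 homeostatic microglia genes. *P2ry12*, the purinergic receptor of resting microglia, was at 467 against 1072 CPM in PS19, a log2 ratio of -1.20 [-1.34, -1.05], and at -1.02 [-1.17, -0.88] in PZKO. *Siglech* had -1.52 and -1.33 and *Selplg* -1.30 and -1.24. The others were *Itga9* (-2.01 and -1.83), *Cacnb2* (-1.66 and -1.08), *Ltc4s* (-1.89 and -1.67), a leukotriene synthase, and the noncoding or unnamed transcripts 8030442B05Rik (-1.85 and -2.20), Gm10790 (-1.30 and -1.20), *Trp53cor1* (-1.68 and -1.16) and Gm42047. Gm42047 was the exception, with -1.72 in PS19 and 0.18 [-0.83, 1.18] in PZKO, on 17 against 21 UMIs.

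Over the whole list of 12 homeostatic genes, 8 lay at -0.5 or less in PS19 and 9 in PZKO, with medians of -0.94 and -0.86, while 10.9% and 12.8% of all genes did so. *Trem2* was higher in the induced nuclei of PS19, with 353 against 264 CPM and a log2 ratio of 0.42 [0.20, 0.64], and not separated in PZKO, at 0.04 [-0.20, 0.27]. *Tyrobp* had 0.48 [0.18, 0.78] and 0.01 [-0.32, 0.35]. *Axl* was higher in both, at 0.96 [0.69, 1.24] and 1.37 [1.10, 1.65]. The difference between the libraries in these ratios was not tested. Of 27 further DAM genes, 22 lay at 0.5 or more in PS19 and 18 in PZKO, with medians of 0.90 and 0.84, while 10.3% and 11.4% of all genes did so.

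**Figure D4:**
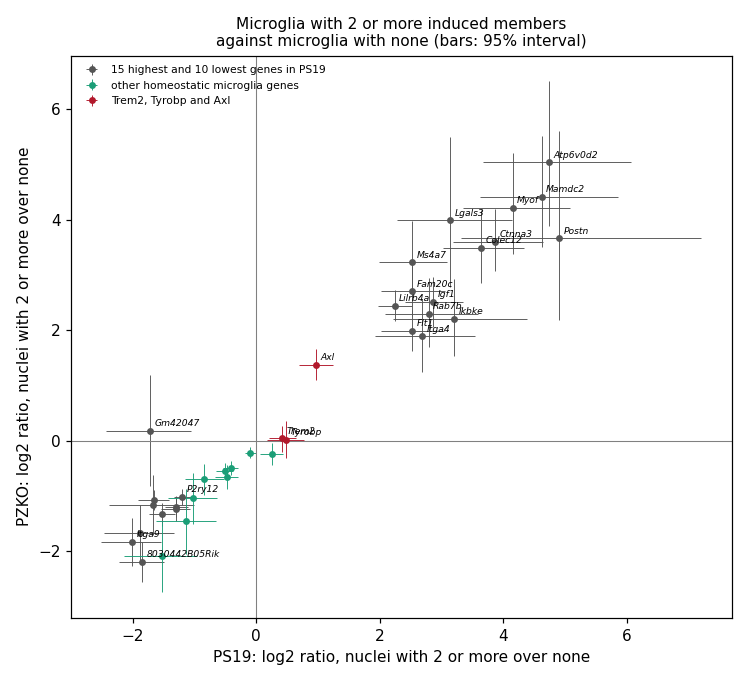
The log2 ratio of nuclei with 2 or more induced members over nuclei with none, in PS19 (x axis) and in PZKO (y axis), with 95% intervals, for the 25 named genes (grey), the remaining homeostatic genes (green), and *Trem2*, *Tyrobp* and *Axl* (red). The 25 genes lie in the upper right and lower left corners apart from Gm42047, and *Trem2* and *Tyrobp* lie near 0 in PZKO.

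The genes around the members were read from lists. Of the 16 genes on the list of TREM2 signaling, which holds genes that carry the signal and genes that damp it, 15 had at least 50 UMIs in microglia. None lay at -0.5 or less and 1 lay at 0.5 or more, *Cblb*, a ubiquitin ligase, at 0.61 [0.35, 0.88]. Their median was 0.20 and none was below 0. Over all microglial genes, 8.75% lay at -0.5 or less, 4.68% at 0.5 or more and 53.5% below 0. *Syk*, the kinase that docks to TYROBP, had 170 CPM in PS19 and 182 CPM in PZKO, a log2 ratio of 0.09 [-0.08, 0.26]. *Plcg2*, the phospholipase downstream of it, had 313 and 360 CPM and 0.20 [0.08, 0.33], and *Inpp5d*, the phosphatase SHIP1, 0.12 [0.07, 0.18]. At the low end of the list lay *Btk* at 0.00 and *Ptpn6* at 0.04, and next below *Cblb* at the high end came *Nfatc2* and *Pik3ap1*, both at 0.36.

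Of the TREM2 sheddases, *Adam10* was at 0.10 [-0.02, 0.23] and *Adam17* at 0.10 [-0.05, 0.25]. Of the MS4A genes that modulate TREM2, *Ms4a6d* was at -0.51 [-0.75, -0.26] and *Ms4a6c* at -0.34 [-0.63, -0.06], while *Ms4a6b* was at -0.02 [-0.39, 0.34]. Of the other TREM receptors, *Trem1* and *Trem3* were at 0 UMIs in both libraries, and *Treml2* had 61 and 81 UMIs.

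Most of the further DAM genes were lower in PZKO, in microglia and also outside them. Of 28 genes with at least 50 UMIs in microglia, 16 lay at -0.5 or less (15 with TMM or DESeq2 factors) and none at 0.5 or more. Their median was -0.55 and 25 lay below 0. Of all microglial genes, 8.75% lay at -0.5 or less, 4.68% at 0.5 or more and 53.5% below 0. The lowest were *Lyz2*, lysozyme, at -1.90 [-2.14, -1.66], and *Apoe*, the apolipoprotein and TREM2 ligand, at 3291 CPM in PS19 and 1323 CPM in PZKO, -1.31 [-1.37, -1.26]. The highest were *Cadm1* at 0.24 [0.17, 0.31] and *Ank* at 0.06 [-0.05, 0.17]. In nuclei with at most 1% mitochondrial UMIs, 10 of 28 lay at -0.5 or less and the median was -0.43. Outside microglia, 15 of 22 such genes lay at -0.5 or less in oligodendrocytes and 13 of 22 in astrocytes, both with a median of -0.67. In excitatory neurons 13 of 23 did (median -0.57), and in inhibitory neurons 10 of 19 (median -0.52). Over all genes of these classes the shares were 9.53%, 11.4%, 9.39% and 9.02%.

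*Axl* was set beside its ligands and kin. *Gas6*, its ligand, was at -0.44 [-0.76, -0.13], *Pros1*, a ligand of the same receptor family, at 0.10 [-0.02, 0.22], and *Mertk*, the sister receptor, at 0.13 [0.08, 0.18]. *Mitf*, which together with *Tfeb* and *Tfe3* controls lysosomal genes such as *Gpnmb*, was at -0.02 [-0.09, 0.04], and *Tfeb* was at 0.31 [0.07, 0.55]. *Mitf* was higher in nuclei with at least 2 induced members, by 0.76 [0.65, 0.88] in PS19 and 0.88 [0.78, 0.99] in PZKO.

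Among the partners of the other members, none of 11 genes passed either limit and the median was 0.06. Of all microglial genes, 8.75% passed the lower limit and 4.68% the upper one. *Itgb2*, which pairs with ITGAX, was at -0.14 [-0.39, 0.11], *Ctsc*, a cathepsin that CST7 inhibits, at 0.20 [0.08, 0.32], *Cd44*, a receptor for osteopontin, at -0.30 [-0.65, 0.05], and *Lrp5*, a Wnt coreceptor bound by DKK2, at 0.31 [0.10, 0.52]. The 12 homeostatic genes had a median of -0.02 (0.01 with TMM or DESeq2 factors), with *Olfml3* (-0.29) and *Gpr34* (-0.26) lowest and *Sall1* (0.35) and *Tmem119* (0.27) highest.

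Genes of cell division and some markers of other cells also differed between the libraries. Other markers differed little in microglia, such as those of astrocytes (955 and 954 CPM) and of inhibitory neurons (89.7 and 93.8 CPM). Dividing cell genes had 170 UMIs in PS19 microglia and 44 UMIs in PZKO microglia over 4 genes, with *Top2a* at 81 and 20. *Ttr*, the transthyretin of choroid plexus, had 2576 and 320 UMIs. Of the same list, *Enpp2* had 360 and 198 UMIs, *Kl* 29 and 13 and *Folr1* 15 and 4, while *Htr2c* had 17 and 21 UMIs. The border macrophage list had 344 and 239 UMIs, 301 and 208 of them of *Ms4a7*, while *Lyve1* was at 0 in both libraries. Monocyte and neutrophil genes summed to 11 and 23 UMIs over 6 genes, and dendritic cell genes to 103 and 85 UMIs over 6 genes, with *Zbtb46* at -0.56 [-1.09, -0.03]. *Neat1* was at -0.41 [-0.57, -0.25] and *Meg3*, a neuronal transcript, at 0.63 [0.39, 0.87]. Their part in the differences of the members was not tested.

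Outside microglia, the members parted into genes held by microglia and genes shared with other classes. Among the named classes, microglia had the highest level of all 9 members in PS19 and of 7 in PZKO. There *Tyrobp* was highest in macrophages (165 CPM on 7 UMIs) and *Dkk2* in endothelial cells. Unnamed clusters were left out of this order. The unnamed cluster led by *Vwc2l* had *Dkk2* at 32.8 CPM in PZKO, above both classes. A small unnamed cluster led by *Cd74* (8 and 11 nuclei) had *Axl* at 362 and 288 CPM and *Tyrobp* at 290 and 180 CPM, above microglia, on few UMIs. *Itgax* was the most restricted: 91.0% of its UMIs over the named classes in PS19 and 87.2% in PZKO lay in microglia, and its level there was 65.5 and 41.1 times that of the next class of at least 50 nuclei. For *Trem2* these shares were 72.5% and 72.7%, and the level in microglia was 17.3 and 23.7 times the next. These shares and folds leave out an unnamed cluster of low depth, led by 1200007C13Rik and *Ttn* (330 and 245 nuclei). It had *Trem2* at 73.5 and 32.0 CPM, *Itgax* at 16.6 and 3.55 CPM and *Tyrobp* at 111 and 92.4 CPM. *Lpl* was at 56.9 and 35.5 CPM there, and *Spp1* at 52.1 and 35.5 CPM.

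In PS19 the intervals of microglia and macrophages overlapped for *Trem2* (184 CPM on 12 UMIs in macrophages), *Tyrobp* and *Axl*, and also for *Cst7* and *Dkk2*, which had no UMI in the few macrophages and whose 95% intervals there reached up to 56.6 CPM. In the PZKO library macrophages held 1 UMI of *Trem2*, a level of 23.6 [0.598, 131.5] CPM, which did not overlap with microglia. *Cst7* had no UMI there either, with an interval of up to 87.1 CPM.

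*Gpnmb* had the lowest share of its UMIs in microglia among the members in PS19, 32.1%, and in PZKO that share was 29.4%, above the 12.5% of *Dkk2*. Astrocytes held 480 PS19 UMIs and 477 PZKO UMIs, or 59.3 [54.1, 64.8] and 43.0 [39.3, 47.1] CPM, a log2 ratio of -0.46 [-0.65, -0.28]. In the astrocytes of the cluster led by *Aqp4*, *Gfap* and *A2m* it had 444 and 430 UMIs, or 90.8 and 77.8 CPM, and 24.2% and 22.3% of nuclei were positive, while the cluster led by Gm12239 and *Gpc5* was at 11.2 and 8.46 CPM. Within the *Aqp4*, *Gfap* and *A2m* cluster the log2 ratio was -0.22 [-0.42, -0.03].

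*Gpnmb* was also found in oligodendrocyte precursors, at 57.2 [45.7, 70.7] and 33.3 [26.3, 41.5] CPM, and these nuclei held 3.40 and 3.43 UMIs per positive nucleus. In excitatory neurons it was at 5.74 and 1.86 CPM, and 289 of its 336 UMIs in PS19 and 129 of 176 in PZKO lay in 1 cluster, led by *Dsp* and *Trpc6*. This cluster held 1009 PS19 nuclei and 514 PZKO nuclei. The log2 ratio was -1.62 [-1.89, -1.36] over all excitatory neurons and -0.71 [-1.02, -0.40] within the cluster. Astrocyte markers summed to 824 CPM in the *Gpnmb*-positive PS19 microglia and to 974 CPM in the *Gpnmb*-negative ones, and to 841.5 and 967 CPM in PZKO. The markers of oligodendrocyte precursors went the other way, with 63.4 CPM in the *Gpnmb*-positive and 24.3 CPM in the *Gpnmb*-negative PS19 microglia, and 78.1 and 41.6 CPM in PZKO. The precursors themselves had 18087 CPM in PS19 and 17960 CPM in PZKO. Macrophage markers were also higher in the *Gpnmb*-positive microglia, at 25.8 against 11.3 CPM in PS19 and 20.2 against 7.99 CPM in PZKO. So were the endothelial markers, which include *Flt1*, at 317 against 91.1 CPM and 440 against 128 CPM. No other class had markers that were higher there in both libraries. The part of these classes in the *Gpnmb* counts of microglia was not tested.

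*Axl* was shared with the vessel wall and astrocytes. Pericytes were at 111 [80.1, 149] CPM in PS19 and 129 [99.2, 164] CPM in PZKO, astrocytes at 58.3 [53.1, 63.8] and 58.7 [54.2, 63.4] CPM, and vascular leptomeningeal cells (VLMC) at 43.7 [27.4, 66.2] and 73.7 [59.7, 90.0] CPM. The intervals of astrocytes and VLMC overlapped in both libraries. The log2 ratio was 0.01 [-0.16, 0.18] in astrocytes, 0.22 [-0.36, 0.81] in pericytes and 0.75 [0.07, 1.49] in VLMC.

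Among named classes of at least 50 nuclei, *Spp1* was next highest in VLMC, at 77.5 [55.1, 106] and 34.5 [25.2, 46.2] CPM. Its level in microglia was 2.11 times that of VLMC in PS19 and 1.11 times in PZKO, and in PZKO the intervals of VLMC, macrophages and T cells overlapped with that of microglia. *Lpl* was next highest, among named classes of at least 50 nuclei, in endothelial cells, at 16.5 and 7.79 CPM. It was found in excitatory neurons at 7.16 [6.49, 7.88] and 5.95 [5.47, 6.47] CPM.

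The neuronal *Lpl* lay mostly in 2 clusters, with 213 and 131 of 419 UMIs in PS19 and 204 and 209 of 562 UMIs in PZKO. The cluster led by Gm32647, *Mndal* and *Ccbe1* was at 26.0 and 19.1 CPM, with 49.1% and 51.8% of nuclei positive, and the cluster led by 4921539H07Rik was at 13.9 and 15.3 CPM, with 22.8% and 32.7% positive. *Dkk2* was found in an excitatory cluster led by *Cdh18*, *Foxp2* and *Col5a1*, at 13.2 and 10.4 CPM, and in an unnamed cluster led by *Vwc2l*, at 32.1 and 32.8 CPM.

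In the endothelial class, *Dkk2* had 5 PS19 UMIs and 34 PZKO UMIs, or 4.596 [1.49, 10.7] and 26.5 [18.3, 37.0] CPM. The 34 UMIs came from 5 of 316 nuclei, 1 of which held 17, and 4 of 322 PS19 nuclei were positive. Few nuclei thus set this value, and the PZKO interval of endothelial cells overlapped with that of microglia (17.3 CPM).

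**Figure D5:**
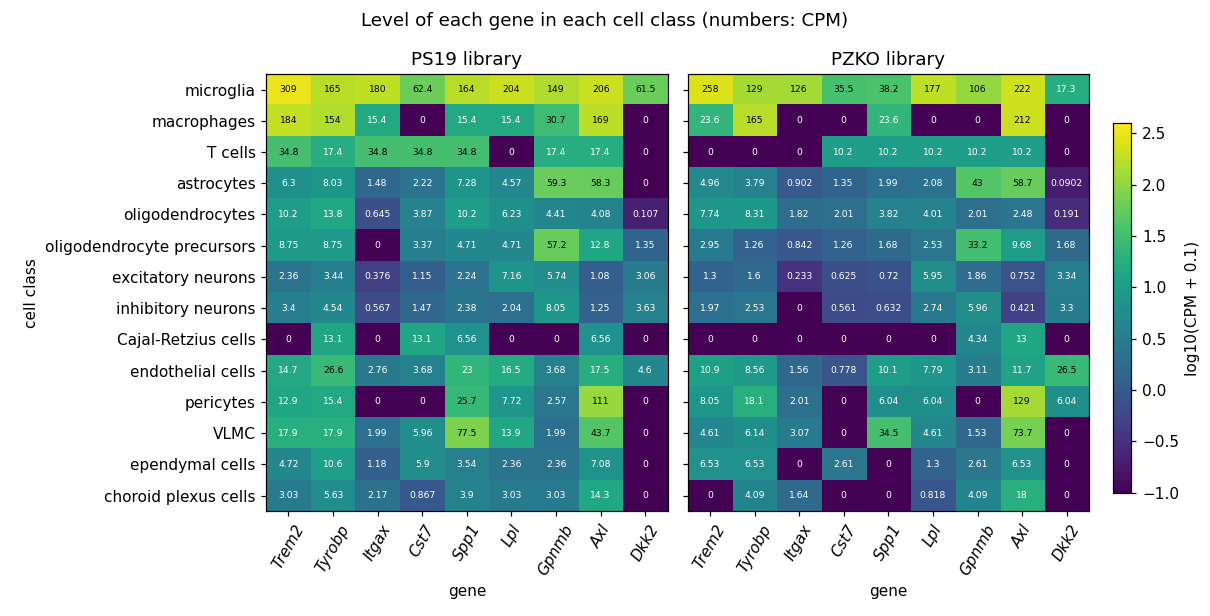
The level of each member (x axis) in each of 14 cell classes (y axis) in CPM, in the PS19 library (left) and the PZKO library (right), with color on a log10(CPM + 0.1) scale and the value written in each cell. Microglia are the top row; *Gpnmb* is also at 59.3 and 43.0 CPM in astrocytes, *Axl* at 111 and 129 CPM in pericytes, and *Spp1* at 77.5 and 34.5 CPM in VLMC.

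Low counts of the members were also found in classes that should lack them, and most of these were lower in PZKO too. *Spp1* was at 2.24 CPM in PS19 and 0.72 CPM in PZKO excitatory neurons, a log2 ratio of -1.64 [-2.08, -1.20], and at 10.2 and 3.82 CPM in oligodendrocytes, -1.42 [-1.99, -0.87]. *Tyrobp* was at -1.10 [-1.42, -0.79] in excitatory neurons and -0.73 [-1.14, -0.32] in oligodendrocytes. Of the members with at least 50 UMIs, 6 of 7 lay at -0.5 or less in oligodendrocytes, 6 of 8 in excitatory neurons, 3 of 6 in astrocytes and 2 of 5 in inhibitory neurons. Over all genes of these classes the shares were 9.53%, 9.39%, 11.4% and 9.02%. The counts of members also include genes described above as held by these classes, *Gpnmb* and *Axl* in astrocytes and *Gpnmb*, *Lpl* and *Dkk2* in excitatory clusters. They are thus not counts of stray signal alone. Free RNA in droplets is known to give low counts in classes that lack a gene, and its part in these values was not tested.

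The genes most like *Trem2* over the 14 classes in both libraries (28 points, Pearson's r of log2(CPM + 1), classes of a library sharing its depth) were *Rgs10* (0.874), *Csf1r* (0.873), *Tyrobp* (0.871), *Slc11a1* (0.869) and *C1qc* (0.858). Those most like *Axl* were *Mertk* (0.885), *Tlr4* (0.862) and *Apobec1* (0.849), and those most like *Lpl* were *Kcnj2* (0.901), *Senp2* (0.852) and *Plaur* (0.835).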

How the data were processed

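The authors deposited raw UMI counts per gene and nucleus from 10x Genomics snRNA-seq, without normalization, made with Cell Ranger on mm10 (version 7.0.1 per the labels, 8.0.1 per the file headers). Tissue was pooled by genotype, and the counts do not separate animals. Nuclei were kept at 600 UMIs, 300 genes and at most 5% mitochondrial UMIs. The highest Scrublet scores were removed as doublets at 0.8% per 1000 nuclei (8.37% of PS19 and 8.11% of PZKO nuclei), because the automatic threshold marked 589 and 0 nuclei. Both libraries were clustered together with scanpy 1.11.5 (2000 variable genes, 30 principal components, 20 neighbours) and leidenalg 0.10.2 at resolution 1. Members, *Zbp1* and the lists were left out of the variable genes, apart from lists that mark other cell types. Clusters were named from markers, with limits set after the clusters had been seen.

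UMIs were summed per class and library and scaled to CPM. Sums have exact Poisson intervals, shares exact binomial intervals and log2 ratios exact conditional (Clopper-Pearson) intervals. Thinned shares are expected values from the hypergeometric formula. Where a count was 0, 3 counts were allowed. The procedure was tested on simulated data. Genes counted as past the fold at a log2 ratio of 0.5 or more, or of -0.5 or less, with at least 50 UMIs over both libraries. No test was made, since there is 1 library per genotype. The members, lists and rules were chosen with earlier results of these data known. Genes were named by rule: the members, *Zbp1*, the genes most like *Trem2*, *Axl* and *Lpl*, the 15 highest and 10 lowest genes in the comparison of nuclei (at least 100 UMIs in PS19 microglia, ranked by the interval's end nearest to 0), the 2 lowest and 2 highest of each list, and list members with a named role. Alternatives were TMM (edgeR 4.0.16) and DESeq2 1.42.0 size factors, equal weights for all nuclei, subtraction of 10% of the UMIs, other filters on nuclei, doublets kept, other clusterings, macrophages counted with microglia, other minima of UMIs, other thinning, and, added after the data were seen, leaving out shared barcodes or nuclei with more than 1% mitochondrial UMIs.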

Additional observations from a re-analysis of the deposited data

How the results depend on the processing

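No paired analysis was possible because each genotype has 1 library. Of 492 values recomputed under an alternative, 432 stayed within a limit. For a single gene, share or pair this was its counting interval. A median was held against the median of the interval ends of its genes or pairs. For the median of all genes the limit was a fixed range, and for a count it was a change of at most 1.5 times. TMM and DESeq2 factors raised all ratios by 0.04, so that *Itgax* was at -0.48, 3 members and 15 further DAM genes lay past the limit, and the median of all genes was 0.01, while leaving out the shared barcodes moved none of 26. Among the alternatives for the ratios, those on mitochondrial UMIs moved the most values. Under the stricter filter (1000 UMIs, 500 genes, 1% mitochondrial UMIs) the median of the members was -0.21 and *Gpnmb* was at 0.23. With the classes unchanged and at most 1% mitochondrial UMIs, the median was -0.18, 2 members lay past the limit and *Gpnmb* was at 0.24. With every nucleus weighed the same, the median was -0.29. The cause was not tested. *Spp1* ranged from -2.21 to -1.93 and *Dkk2* from -1.93 to -1.23 over all alternatives. The share of microglia with at least 2 induced members was 10.4% and 5.47% at 1000 UMIs, and 31.2% and 24.6% unthinned. The border macrophage median was 2.39 with each library clustered on its own, where no PZKO macrophages were named, and the median of the nuclear noncoding RNAs was -0.24 after the 10% subtraction. Depth limits *Dkk2* and *Cst7*, which rest on 58 and 119 UMIs in PZKO.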
